A study of Mus musculus with 10 samples.

Results

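The genes described here run the cell division cycle and copy DNA: the cyclins, cyclin-dependent kinases (CDKs) and inhibitors of G1, the machinery of DNA replication, and the factors of mitosis. They are 49 genes of known function, chosen by name with earlier results of these data known. They were found through the gene symbols of the array annotation, older symbols included. Shares given for these genes therefore describe the list, and no test over the list was run. Of the 49, 46 had a probe set annotated with 1 symbol, out of 8251 genes named on the arrays. Of these, 43 had a probe set on both array designs and 41 had enough signal to be tested. Ccnd3, Cdkn2c and Kif20a were on the newer array design only. Ccnb1 and Bub1b had no probe set, and Tyms was present only on probe sets that carry several symbols.

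RNA was measured in mouse neocortical neuron cultures on 10 Affymetrix arrays, 1 per sample. The cultures were made from foetuses of Swiss albino mice at gestation day 15 to 16, with no engineered allele named in the labels. On culture day 5 they received 1 µM lactacystin, which blocks the proteasome, in serum-free medium, or served as controls, and RNA was taken at 24 h or 48 h. Each time had 2 control arrays and 3 lactacystin arrays. The labels do not say whether controls received the DMSO in which lactacystin was dissolved. Nor do they say that each replicate came from a culture of its own, so the p-values speak of the spread among these arrays, part of which may be technical.

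In a dividing cell, D-type cyclins with CDK4 or CDK6 and cyclin E with CDK2 phosphorylate the retinoblastoma protein, which frees E2F transcription factors to switch on the replication genes. The MCM helicase is then loaded at origins and opened, and polymerases, primase, clamp and ligase copy the DNA. Cyclin A, cyclin B, CDK1, Aurora and Polo kinases drive mitosis, and the genes for these proteins peak later, in G2 and M. Cortical neurons are postmitotic; in such cultures dividing cells are usually progenitors, glia and other non-neuronal cells, and re-expression of cell cycle genes has also been described in neurons under stress. Cyclins and many replication and mitotic proteins are degraded by the proteasome, but the arrays measure mRNA and not protein.

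The arrays were of mixed design. U74A carried replicate 1 of both control groups and of lactacystin at 24 h, together with replicate 3 of lactacystin at 48 h. Its revision U74Av2 carried the remaining 6. Signals below are scaled probe set intensities without unit and are listed in replicate order. Changes are log2 differences of signal plus 32, adjusted for array design, with a standard error (SE). Adjusted p-values are from limma with the Benjamini-Hochberg method over all 6984 probe sets tested, and "rose" or "fell" means an adjusted p under 0.05.

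At 24 h the G1 genes Ccnd1 and Cdk4 passed the test as higher under lactacystin. No replication or mitosis gene passed it with all arrays fitted. A second Cdk4 probe set, brighter but on U74Av2 only, was not higher, with 3917 in the control against 3687 and 3844 under lactacystin. At 48 h 18 of the 41 tested genes rose and none fell: 1 of 8 G1 and regulator genes, 8 of 19 replication genes and 9 of 14 mitosis genes. The rises ran from 1.48-fold for Rrm2, a subunit of ribonucleotide reductase, to 2.12-fold for the chromatin protein Hmgb2. Of all probe sets tested, 6.77% rose and 3.57% fell at 48 h, against 43.9% and 0 of these genes. At 24 h 8.20% of all probe sets rose and 6.66% fell, against 4.88% and 0 of these genes. The median change of the 41 genes was 0.04 at 24 h and 0.56 at 48 h, beside -0.03 and 0.04 over all probe sets tested. The medians by stage at 48 h were 0.30 for G1 and regulators, 0.48 for replication and 0.72 for mitosis. Within U74A they were 0.53, 0.57 and 1.18, and within U74Av2 0.11, 0.48 and 0.43, so replication and mitosis changed order between the designs; the difference between stages was not tested.

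The count at 48 h depended on 1 control array. Without replicate 1 of the 48 h controls, a U74A array, 2 of the 41 genes passed the test (Mcm2 and Mcm4), the median was 0.40 and 37 changes were above 0. The share of all probe sets that rose was then 2.28%. By stage, these were 2 of 19 replication genes, 0 of 14 mitosis genes and 0 of 8 G1 genes and regulators. Without replicate 2 of the 48 h controls, 14 genes passed (10 of them mitosis genes), the median was 0.70 and 2.43% of all probe sets rose. Without replicate 3 of lactacystin at 48 h 11 genes passed, beside 420 of the 6984 probe sets, and leaving out any other array left 15 to 19 genes.

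**Figure D1:**
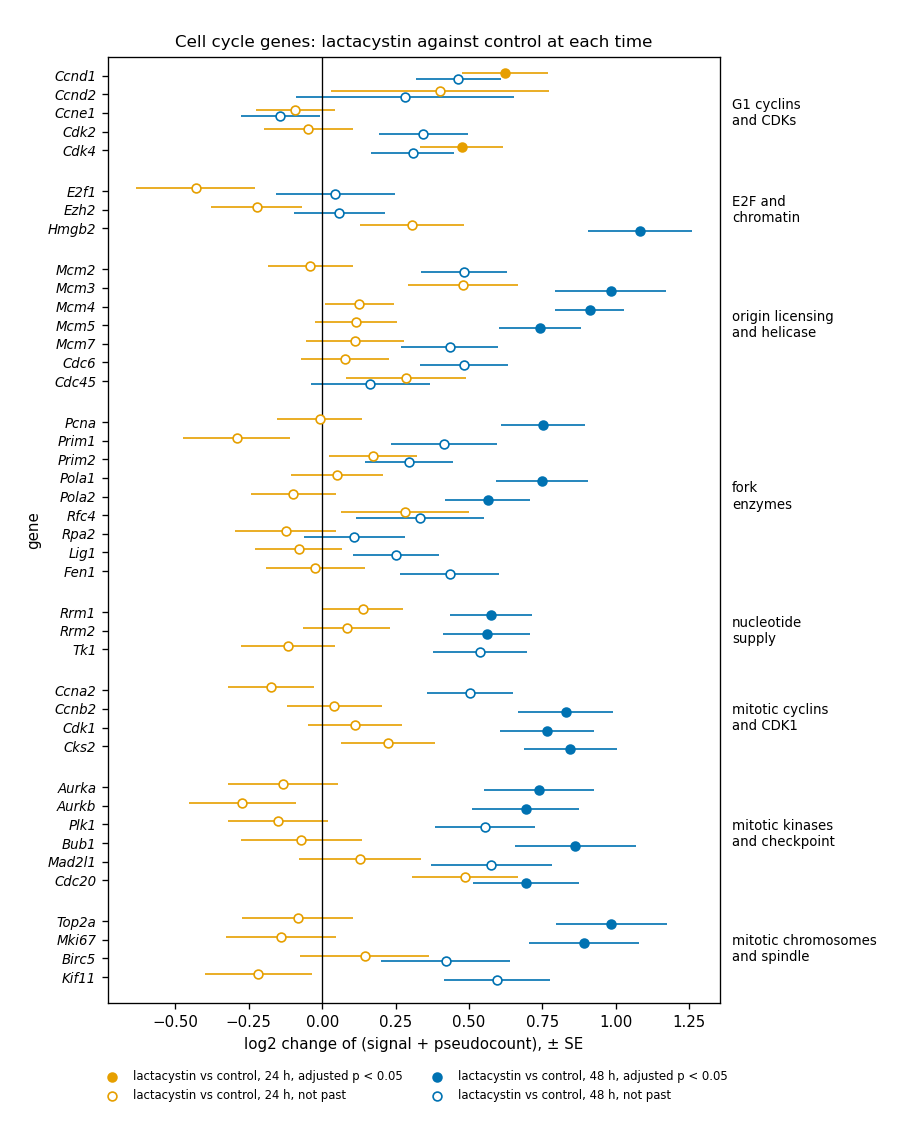
Log2 change under lactacystin against control at 24 h (orange) and 48 h (blue) for the 41 tested genes, ordered by role, with bars for the SE and filled points for an adjusted p under 0.05. At 24 h the points scatter around 0 and only Ccnd1 and Cdk4 are filled, while at 48 h 40 of 41 lie above 0 and 18 are filled.

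Among the G1 cyclins and CDKs, 2 of 5 tested genes rose at 24 h and 0 of 5 at 48 h. Ccnd1 encodes cyclin D1, the partner of CDK4 and CDK6 that responds to growth signals. Its signals at 24 h were 338 and 386 in controls and 602, 545 and 546 under lactacystin, so the groups did not overlap. The change was 0.62 ± 0.15 (SE, adjusted p = 0.0151), and 0.78 and 0.47 within U74A and U74Av2. It lost the call without replicate 1 of the 24 h controls (0.44, adjusted p = 0.142). At 48 h Ccnd1 gave 411 and 396 in controls and 493, 513 and 689 under lactacystin, again with no overlap, and a change of 0.46 ± 0.15 that did not pass (adjusted p = 0.0667). A further Ccnd1 probe set also rose at 24 h, by 0.92 ± 0.20 (adjusted p = 0.00978).

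Cdk4, the kinase that cyclin D1 activates, gave 1474 and 949 in controls and 2041, 1261 and 1483 under lactacystin at 24 h. The groups overlapped, but within each design the lactacystin arrays were above the control, and the U74A arrays of both groups gave the higher signals. The change was 0.48 ± 0.14 (adjusted p = 0.0437), and it was the less stable of both calls at 24 h. Leaving out any array of the 24 h groups ended it, with changes of 0.39 to 0.55 and adjusted p of 0.0534 to 0.324, as did leaving out replicate 3 of lactacystin at 48 h (adjusted p = 0.0520). A second Cdk4 probe set, on U74Av2 only, was the brighter on those arrays, at 3917 in the control and 3687 and 3844 under lactacystin. It showed -0.06 at 24 h, so the probe sets of this gene disagree. At 48 h Cdk4 gave 961 and 866 in controls and 846, 1016 and 1429 under lactacystin, which overlap.

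The other G1 genes did not pass at either time. Ccnd2, a D-type cyclin of neural progenitors, varied widely at 48 h, with 265 and 272 in controls and 541, 159 and 397 under lactacystin (0.28 ± 0.37). Ccnd3, also a D-type cyclin, was measured on U74Av2 only, with 449.8 in the control and 603 and 723 under lactacystin at 48 h (0.52 ± 0.16, adjusted p = 0.121 over the probe sets of that design). Ccne1, cyclin E1, was the 1 gene of the 41 with a change below 0 at 48 h. Its signals were 376 and 335 in controls and 329.9, 303 and 326 under lactacystin, so every lactacystin array was below both controls, with a change of -0.14 ± 0.14. Cdk2, the partner of cyclin E, changed by -0.05 at 24 h and 0.34 ± 0.15 at 48 h (adjusted p = 0.185).

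Of the CDK inhibitors among the 49, neither was tested on both designs. Cdkn1b, the inhibitor p27 that holds cells out of the cycle, was too low to test. It gave 121 and 64.3 in controls and 74, 27 and 40 under lactacystin at 24 h, and 63.3 and 10.6 against 13.4, 34 and 79 at 48 h, with overlap at both times. Cdkn2c, the CDK4 and CDK6 inhibitor p18, was on U74Av2 only. At 24 h it gave 414 in the control and 362 and 395 under lactacystin, and at 48 h 371 in the control and 515 and 533 under lactacystin. The change at 48 h was 0.46 ± 0.14 (adjusted p = 0.126), with 1 control array in that fit.

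E2f1, the E2F factor that activates replication genes, did not pass at either time. Its change was -0.43 ± 0.20 at 24 h (adjusted p = 0.182) and 0.05 ± 0.20 at 48 h. At 24 h every lactacystin array (78.4, 62.4 and 64.2) was below both controls (89.2 and 113). Ezh2, the histone methyltransferase of Polycomb complex 2 and an E2F target, gave 753 and 1154 in controls and 1134, 909.6 and 994 under lactacystin at 48 h, which overlap. Its change was 0.06 ± 0.15 (-0.22 ± 0.15 at 24 h, where 964 and 1059 in controls met 711, 957 and 1044 under lactacystin).

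Hmgb2, a chromatin protein abundant in dividing cells, was the 1 gene of these roles that rose at 48 h. Its control signals were 277 and 199, and the lactacystin arrays gave 446, 435 and 600.3, with no overlap. The change was 1.08 ± 0.18 (adjusted p = 0.00339), the largest among the 41 genes, and 1.03 within each design. At 24 h the groups overlapped, at 620.4 and 316 in controls and 869, 424 and 357 under lactacystin. The Hmgb2 probe set carries the suffix r, which marks relaxed rules of probe choice. The change was 0.91 (adjusted p = 0.0554) without replicate 1 of the 48 h controls.

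Replication genes follow, and their promoters are shown first because E2F is the textbook regulator of this set. RefSeq promoters (assembly GRCm38.p6, 250 bases before to 50 after the start) were at hand for 42 of the 49 genes, 48 promoters in all. E2F words were searched as TTTCCCGC, TTTCGCGC, TTTGCCGC and TTTGGCGC on both strands, and CCAAT boxes as CCAAT on both strands. E2F words occurred in 7 of 23 promoters of replication genes (30.4%), 1 of 14 of mitosis genes (7.14%) and 2 of 11 of G1 genes and regulators (18.2%). An E2F word stood in 2.26% of all 32851 promoters of RefSeq and in 3.52% of the 8412 promoters of genes named on the arrays. The promoters of Mcm5 at chr8:75109259-75109558 (plus strand) and of Mcm3 at chr1:20820263-20820562 (minus strand) are printed 5′ to 3′, with E2F words and CCAAT boxes of either strand in capitals. These 2 had the smallest adjusted p at 48 h among replication genes with a promoter at hand, and none was at hand for Mcm4. Most promoters of replication genes, such as that of Pcna, held no E2F word. In Mcm5 the first run of capitals is a pair of overlapping E2F words on opposite strands. These are matches of letters and not measured binding sites.
Mcm5: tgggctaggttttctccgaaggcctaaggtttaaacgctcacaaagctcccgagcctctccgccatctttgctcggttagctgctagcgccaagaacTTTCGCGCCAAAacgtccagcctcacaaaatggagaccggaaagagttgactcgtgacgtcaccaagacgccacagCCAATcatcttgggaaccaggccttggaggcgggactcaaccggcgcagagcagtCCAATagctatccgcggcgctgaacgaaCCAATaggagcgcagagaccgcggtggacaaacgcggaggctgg
Mcm3: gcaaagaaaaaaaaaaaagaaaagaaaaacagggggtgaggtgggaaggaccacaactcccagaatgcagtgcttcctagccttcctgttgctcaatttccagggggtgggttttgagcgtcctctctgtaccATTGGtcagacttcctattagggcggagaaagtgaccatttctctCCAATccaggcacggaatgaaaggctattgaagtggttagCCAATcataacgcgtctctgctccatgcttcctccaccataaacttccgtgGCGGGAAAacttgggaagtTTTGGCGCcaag

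Origin licensing and the replicative helicase gave 3 rises among 7 tested genes at 48 h: Mcm3, Mcm4 and Mcm5, subunits of the MCM2-7 ring that unwinds DNA. Mcm4 gave 311 and 378 in controls and 798, 727 and 588 under lactacystin, with no overlap. The change was 0.91 ± 0.12 (adjusted p = 0.000768), and 0.85 and 0.95 within U74A and U74Av2. Mcm4 passed without any 1 of the 10 arrays, with changes of 0.87 to 0.94. At 24 h the same probe set gave 455 and 538 in controls and 477, 617 and 609 under lactacystin, which overlap (0.13 ± 0.12).

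For Mcm3 the control arrays at 48 h gave 106 and 143 and the lactacystin arrays 296, 257 and 263, a change of 0.98 ± 0.19 (adjusted p = 0.00777). Its lactacystin arrays were above both controls at 24 h too (201 and 139 against 286, 214 and 234), but that change of 0.48 ± 0.19 did not pass (adjusted p = 0.114). A second Mcm3 probe set, on U74Av2 only, rose at 48 h by 0.83 ± 0.14 (adjusted p = 0.0331 in a fit of the 6 U74Av2 arrays, where 3.14% of 8696 probe sets rose). Mcm5 went from 517 and 726 in controls to 1215, 1136 and 978 at 48 h, with no overlap (0.74 ± 0.14, adjusted p = 0.00691). Without replicate 1 of the 48 h controls Mcm3 was at 0.72 (adjusted p = 0.0948) and Mcm5 at 0.74 (adjusted p = 0.0617). Mcm5 also lost the call without replicate 2 of those controls.

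The other licensing genes stayed under the threshold with all arrays. Mcm2, a further ring subunit, gave 415 and 279 in controls and 501, 458 and 481 under lactacystin at 48 h (0.48 ± 0.15, adjusted p = 0.0583). It passed without replicate 1 of the 48 h controls, at 0.70 ± 0.16 (adjusted p = 0.0430), and was at 0.23 ± 0.17 (adjusted p = 0.539) without replicate 2. Cdc6, which loads the ring onto origins, changed by 0.48 ± 0.15 (adjusted p = 0.0641) and Mcm7 by 0.43 ± 0.17 (adjusted p = 0.129), and both had all lactacystin arrays above both controls. Cdc45, which joins the ring to form the active helicase, overlapped at 48 h (0.16 ± 0.20). Mcm6 was too low to test, at 4.48 to 37.5 over the 10 arrays.

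Among the fork enzymes 3 of 9 rose at 48 h: Pcna, Pola1 and Pola2. Pcna is the sliding clamp of DNA polymerases. Its signals at 48 h were 1161 and 1800.5 in controls and 2699, 2544 and 2314 under lactacystin, a change of 0.75 ± 0.14 (adjusted p = 0.00779). At 24 h Pcna gave 1939.7 and 2228 in controls and 2252, 2009.6 and 2083 under lactacystin, which overlap (-0.01 ± 0.14).

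Pola1, the catalytic subunit of the polymerase that starts each new strand, gave 126 and 139.7 in controls and 226, 256 and 249 under lactacystin at 48 h (0.75 ± 0.16, adjusted p = 0.0125). Its partner Pola2 gave 279.6 and 241 in controls and 373, 394 and 408 under lactacystin (0.56 ± 0.14, adjusted p = 0.0301). Neither gene overlapped between groups. The primase subunits of the same complex did not pass: Prim1 changed by 0.41 ± 0.18 (adjusted p = 0.180) and Prim2 by 0.30 ± 0.15 (adjusted p = 0.251). Pcna was at 0.50 (adjusted p = 0.0989) and Pola1 at 0.66 (adjusted p = 0.102) without replicate 1 of the 48 h controls. Pola1 also lost the call without replicate 2 of those controls, and Pola2 without any 1 array of the 48 h groups or replicate 3 of lactacystin at 24 h.

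The remaining fork enzymes did not pass at 48 h. Fen1, the flap nuclease that trims Okazaki fragments, changed by 0.44 ± 0.17 (adjusted p = 0.134), with no overlap between groups. Rfc4, a subunit of the clamp loader, changed by 0.33 ± 0.22, Lig1, the ligase that joins the fragments, by 0.25 ± 0.15, and Rpa2, which coats single-stranded DNA, by 0.11 ± 0.17, and their groups overlapped.

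Nucleotide supply gave 2 rises among 3 tested genes at 48 h, both subunits of ribonucleotide reductase, the enzyme that makes deoxynucleotides. Rrm1 gave 316 and 491 in controls and 660.4, 617 and 605 under lactacystin (0.57 ± 0.14, adjusted p = 0.0236). Rrm2, the subunit made mainly in S phase, gave 723 and 784 in controls and 1111, 891 and 1359.5 under lactacystin (0.56 ± 0.15, adjusted p = 0.0345). Tk1, the thymidine kinase of S phase, went from 442 and 491 to 554, 644 and 858 without passing (0.54 ± 0.16, adjusted p = 0.0549). All 3 had every lactacystin array above both controls. Both Rrm1 and Rrm2 lost the call without replicate 1 or 2 of the 48 h controls, and without replicate 1 or 3 of lactacystin at 48 h. Rrm2 also lost it without replicate 2 or 3 of lactacystin at 24 h.

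**Figure D2:**
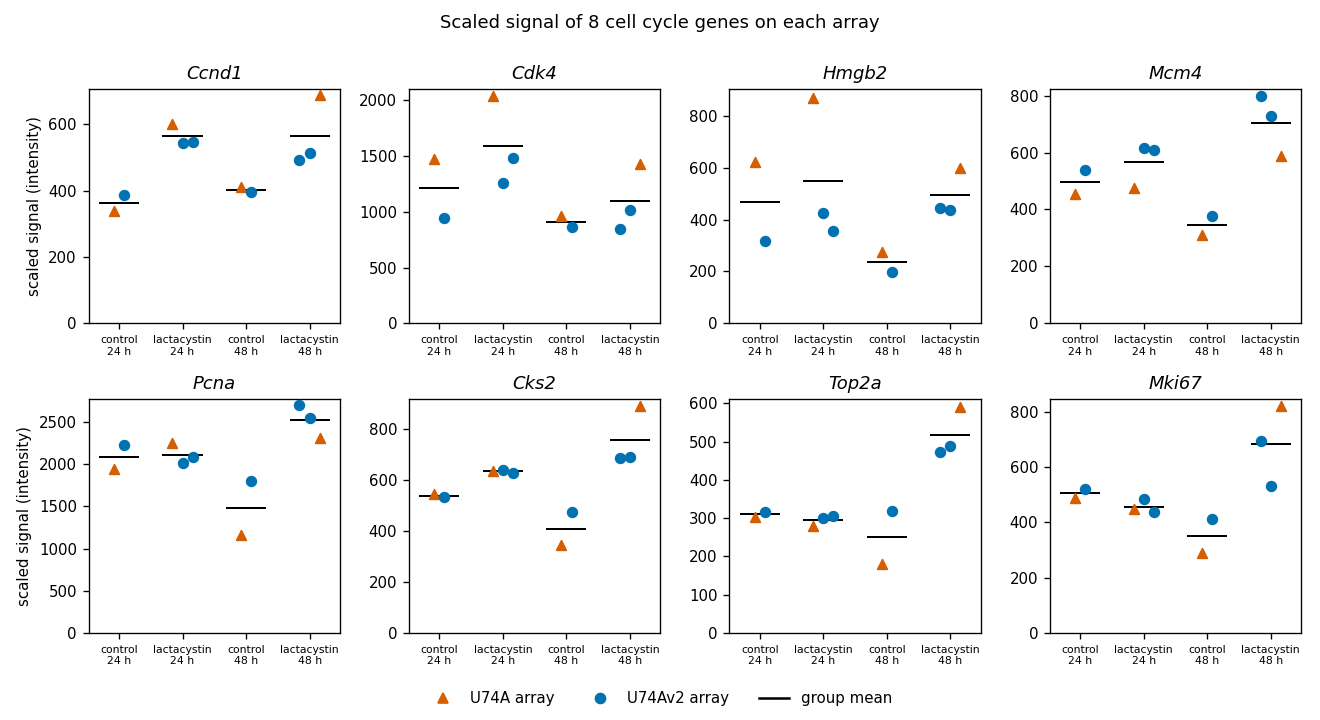
Scaled signal on each of the 10 arrays for 8 genes (Ccnd1, Cdk4, Hmgb2, Mcm4, Pcna, Cks2, Top2a, Mki67), by group, with triangles for U74A, circles for U74Av2 and a line at the group mean. Mcm4 stays between 455 and 617 on the 5 arrays of 24 h, then separates at 48 h into 311 to 378 in controls and 588 to 798 under lactacystin.

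Mitosis genes made up 9 of the 18 rises at 48 h with all arrays, a count that depended on single control arrays, as given above. Their median change was 0.72 with all arrays, 0.52 without replicate 1 of the 48 h controls and 1.08 without replicate 2. Over all probe sets these medians were 0.04, 0.07 and 0.01. Within U74Av2 the median was 0.43 for mitosis genes and 0.07 over all probe sets. Promoters of mitosis genes are shown for the elements that textbook accounts assign to G2 and M genes, the CHR element and the CCAAT box. CHR words were searched as TTTGAA and TTCGAA on both strands. They occurred in 10 of 14 promoters of mitosis genes (71.4%), 4 of 23 of replication genes (17.4%) and 1 of 11 of G1 genes and regulators (9.09%). Of promoters of genes named on the arrays 14.6% held one, and of all promoters 19.2%. CCAAT boxes occurred in 12 of 14 promoters of mitosis genes (85.7%), 13 of 23 of replication genes (56.5%) and 6 of 11 of G1 genes and regulators (54.5%), against 37.0% for genes named on the arrays and 37.4% for all. Top2a and Cks2 are printed by the same rule, as the mitosis genes with the smallest adjusted p at 48 h. Top2a at chr11:99024140-99024439 (minus strand) held 4 CHR words and 6 CCAAT boxes. Cks2 at chr13:51644982-51645281 (plus strand) held 4 CCAAT boxes and no E2F or CHR word. Capitals mark these words on either strand; nothing about a factor follows from a match or its absence.
Top2a: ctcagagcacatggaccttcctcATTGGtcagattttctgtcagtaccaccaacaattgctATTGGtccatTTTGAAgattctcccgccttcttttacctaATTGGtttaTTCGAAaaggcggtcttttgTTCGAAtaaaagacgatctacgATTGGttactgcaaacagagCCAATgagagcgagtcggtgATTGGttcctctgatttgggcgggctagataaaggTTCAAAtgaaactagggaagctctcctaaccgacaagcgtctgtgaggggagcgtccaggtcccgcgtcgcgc
Cks2: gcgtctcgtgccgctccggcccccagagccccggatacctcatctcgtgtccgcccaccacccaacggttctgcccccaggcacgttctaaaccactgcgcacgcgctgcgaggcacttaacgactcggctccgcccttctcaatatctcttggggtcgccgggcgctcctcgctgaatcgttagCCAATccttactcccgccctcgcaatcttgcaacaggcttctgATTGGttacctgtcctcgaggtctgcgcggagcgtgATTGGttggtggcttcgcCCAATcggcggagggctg

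Of the mitotic cyclins and CDK1, 3 of 4 tested genes rose at 48 h. Cks2, the small subunit that docks CDK1 to its substrates, gave 344 and 476 in controls and 689, 691 and 893 under lactacystin (0.85 ± 0.16, adjusted p = 0.00695). Ccnb2, cyclin B2, gave 601 and 729.6 in controls and 998, 1100.3 and 1522 under lactacystin (0.83 ± 0.16, adjusted p = 0.00852). Cdk1, the kinase that starts mitosis, gave 505 and 411 in controls and 632, 928 and 809.9 under lactacystin (0.77 ± 0.16, adjusted p = 0.0120). None of these overlapped between groups. Ccna2, cyclin A2, acts in S phase and G2; it did not pass (0.50 ± 0.15, adjusted p = 0.0505), although its lactacystin arrays (792, 790.2 and 1042) were all above the controls (638 and 581). Without replicate 1 of the 48 h controls Cks2 was at 0.58 (adjusted p = 0.0887), Ccnb2 at 0.61 (adjusted p = 0.110) and Cdk1 at 0.82 (adjusted p = 0.0657). Cdk1 also lost the call without replicate 2 of those controls.

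Mitotic kinases and checkpoint factors gave 4 rises among 6 tested genes at 48 h. Bub1, a kinase of the spindle checkpoint, gave 82.8 and 113 in controls and 186, 168 and 261 under lactacystin (0.86 ± 0.21, adjusted p = 0.0224). Aurka, the Aurora kinase of centrosomes and spindle poles, gave 128 and 152 in controls and 213, 219.5 and 322 under lactacystin (0.74 ± 0.19, adjusted p = 0.0287). Aurkb, the Aurora kinase of the chromosomal passenger complex, gave 198 and 291 in controls and 362, 368 and 498 under lactacystin (0.69 ± 0.18, adjusted p = 0.0341). Cdc20, the activator of the anaphase-promoting complex, gave 600.5 and 889.9 in controls and 1031, 1136 and 1432 under lactacystin (0.69 ± 0.18, adjusted p = 0.0320). The groups of each of these 4 genes were apart.

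Replicate 3 of lactacystin at 48 h, a U74A array, was the highest array for all 4 of these kinases and checkpoint genes. Without it none of the 4 passed, with changes of 0.61, 0.58, 0.51 and 0.54 for Bub1, Aurka, Aurkb and Cdc20. None passed without replicate 1 of the 48 h controls, with 0.65, 0.49, 0.36 and 0.31. Bub1 also lost the call without replicate 2 of the 48 h controls, Cdc20 without replicate 2 of lactacystin at 48 h, and Aurkb without replicate 1 of it and without 4 of the 5 arrays of 24 h. Changes within U74A were 1.35, 1.15, 1.21 and 1.21 for Bub1, Aurka, Aurkb and Cdc20, and within U74Av2 0.53, 0.43, 0.30 and 0.27. Cdc20 was above both controls on every lactacystin array at 24 h as well, at 1214, 1073 and 1088 against 894 and 719 (0.49 ± 0.18, adjusted p = 0.0937). It passed at 24 h in fits without replicate 1 (0.52, adjusted p = 0.0156) or replicate 2 (0.52, adjusted p = 0.0161) of the 48 h controls.

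Plk1, the Polo kinase of mitotic entry, did not pass at 48 h by the probe set that stood for it (0.56 ± 0.17, adjusted p = 0.0605). Another Plk1 probe set did, at 0.67 ± 0.18 (adjusted p = 0.0367), and another, on U74Av2 only, showed 0.38. Mad2l1, a protein of the spindle checkpoint, changed by 0.58 ± 0.21 (adjusted p = 0.105), with every lactacystin array above both controls.

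Of the genes of mitotic chromosomes and spindle, 2 of 4 tested rose at 48 h. Top2a, the topoisomerase that untangles chromosomes, gave 181 and 318 in controls and 474, 488 and 592 under lactacystin (0.99 ± 0.19, adjusted p = 0.00792). Mki67, the antigen Ki-67 that coats mitotic chromosomes and marks cycling cells, gave 291 and 413 in controls and 694, 533 and 821 under lactacystin (0.89 ± 0.19, adjusted p = 0.0124). Both were apart between groups at 48 h. At 24 h Top2a overlapped, at 303 and 317 in controls and 280.0, 301 and 304 under lactacystin, while Mki67 was lower on every lactacystin array, at 448, 484 and 437 against 489 and 521. Neither change at 24 h passed (-0.08 ± 0.19 and -0.14 ± 0.19). Changes within U74A were 1.55 for Top2a and 1.40 for Mki67, and within U74Av2 0.55 and 0.52. Neither passed without replicate 1 of the 48 h controls, where Top2a was at 0.63 (adjusted p = 0.0876).

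Kif11, the motor that separates spindle poles, changed by 0.60 ± 0.18 (adjusted p = 0.0602) with no overlap. Birc5, survivin of the chromosomal passenger complex, overlapped (0.42 ± 0.22, adjusted p = 0.269). Both passed, as did Mad2l1, without replicate 2 of the 48 h controls, at 0.92 for Kif11, 0.94 for Birc5 and 1.10 for Mad2l1 (adjusted p = 0.0450, 0.0387 and 0.0114). Kif20a, a motor of cytokinesis measured on U74Av2 only, gave 291 in the control and 465 and 443 under lactacystin (0.59 ± 0.21, adjusted p = 0.164).

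In all, 63 probe sets stood for the 46 genes, 47 on both designs and 16 on U74Av2 only. Of the 17 that did not stand for their gene, 10 had enough signal to test, and 2 of these passed at 48 h, the ones of Mcm3 and Plk1 above. The others at 48 h were Ccnd1 at 0.63 ± 0.20, Cdk4 at 0.39 ± 0.09, a second one of Kif20a at 0.75 ± 0.21, Mki67 at 0.63 ± 0.23, Pola2 at 0.21 ± 0.44, E2f1 at -0.09 ± 0.22 and Cdkn1b at -0.11 ± 0.27, besides the one of Plk1 on U74Av2. All but the Ccnd1 probe set were on U74Av2 only, with 1 control array at 48 h.

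Counted by array, 31 of the 41 genes (75.6%) had all 3 lactacystin arrays above both control arrays at 48 h, 1 (2.44%) had all below and 9 overlapped. Over all probe sets tested these shares were 16.6% above and 9.87% below. At 24 h 6 genes (14.6%) were above and 4 (9.76%) below, beside 17.2% and 18.9% of all probe sets tested. Within U74A, the lactacystin array of 48 h was above its control for 40 genes (97.6%, against 52.5% of all probe sets). Within U74Av2, both lactacystin arrays of 48 h were above the control for 34 (82.9%, against 45.4%). The medians of the 41 genes at 48 h were 0.81 within U74A and 0.38 within U74Av2.

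**Figure D3:**
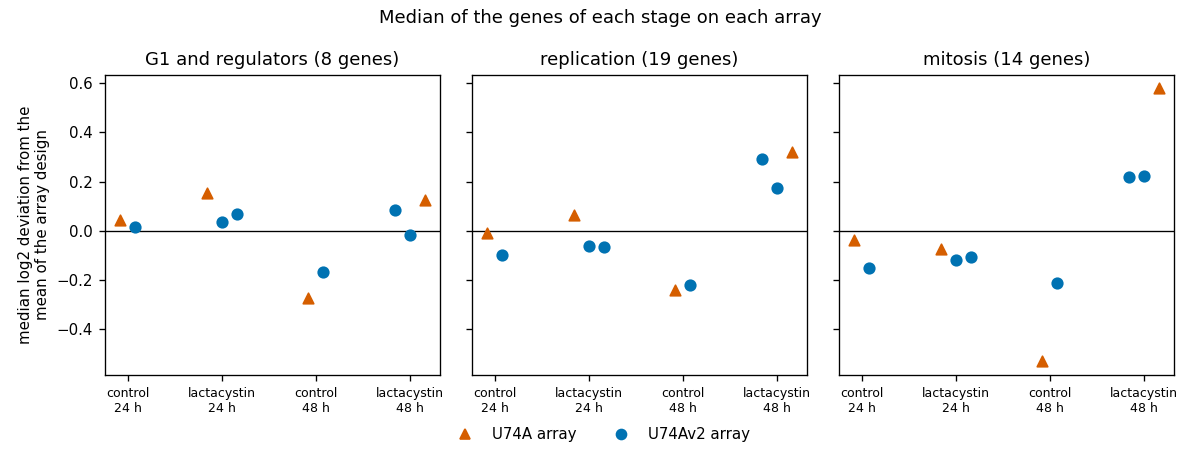
For each array, the median over the genes of a stage of the log2 deviation from the mean of that array's design: G1 and regulators (8 genes), replication (19) and mitosis (14), with triangles for U74A and circles for U74Av2. Mitosis medians at 48 h are -0.53 and -0.21 in the 2 controls and 0.22 to 0.58 under lactacystin, while at 24 h all 5 arrays lie between -0.15 and -0.04.

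The controls were compared on their own, 48 h against 24 h. No gene of the 41 passed, and neither did any of the 6984 probe sets (0% in each direction); at an unadjusted p under 0.05 limma gave 8 of the 41 and 391 of all. The changes were below 0 for 36 of the 41 genes, with a median of -0.25, beside -0.03 over all probe sets. Within U74A the median was -0.34 and within U74Av2 -0.11, and without replicate 1 of the 48 h controls it was -0.09. Hmgb2 had the lowest change, -0.84 ± 0.19 (adjusted p = 0.503), from 620.4 and 316 at 24 h to 277 and 199 at 48 h. Pcna was at -0.51 ± 0.16, Mki67 at -0.50 ± 0.20, Mcm4 at -0.49 ± 0.13 and Aurka at -0.47 ± 0.20. The other direction held for Birc5 (0.18), Ccnd1 (0.15), Prim2 (0.13), Cdc45 (0.09) and, by less than 0.01, Ccne1. The summed signal of the 43 shared genes was 18900 and 19210 in the 24 h controls and 14280 and 17250 in the 48 h controls. Under lactacystin it was 19410 to 21380 at 24 h and 22560 to 25980 at 48 h.

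Under lactacystin, 7 of the 41 genes rose from 24 h to 48 h and 1 fell (17.1% and 2.44%, against 6.19% and 5.38% of all probe sets). Of the 7, 6 were mitosis genes: Top2a (0.74 ± 0.17, adjusted p = 0.0164), Bub1 (0.68 ± 0.18, adjusted p = 0.0375), Aurkb (0.64 ± 0.16, adjusted p = 0.0277), Ccnb2 (0.58 ± 0.14, adjusted p = 0.0254), Kif11 (0.55 ± 0.16, adjusted p = 0.0481) and Ccna2 (0.51 ± 0.13, adjusted p = 0.0277). The replication gene was Pola1 (0.49 ± 0.14, adjusted p = 0.0430). Cdk4 fell by 0.53 ± 0.13 (adjusted p = 0.0207), with -0.50 within U74A and -0.55 within U74Av2. Its second probe set, on the same U74Av2 arrays, went the other way, from 3687 and 3844 at 24 h to 4401 and 4560 at 48 h (0.25 ± 0.08, adjusted p = 0.0976), so the direction for this gene differs between probe sets. This comparison does not use the control arrays in its means. It did depend on single lactacystin arrays. No gene rose without replicate 2 at 24 h or replicate 3 at 48 h, where 172 and 262 of all probe sets rose. With all arrays 432 of all probe sets rose. Without replicate 1 or 3 at 24 h 1 gene rose, beside 432 and 157 of all probe sets. Without replicate 1 at 48 h 4 genes rose, beside 274 of all probe sets. The fall of Cdk4 was lost without replicate 1 or 3 at 24 h or replicate 1 at 48 h.

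Several genes that rose against the control at 48 h changed little with time under lactacystin. Hmgb2 was at -0.06 ± 0.16, Mcm3 at 0.14 ± 0.17, Cdc20 at 0.08 ± 0.16 and Rrm1 at 0.15 ± 0.12, and in the controls their changes over the same time were -0.84, -0.36, -0.13 and -0.29. The 2 comparisons in time share no arrays with each other, but each shares arrays with the comparisons against control.

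**Figure D4:**
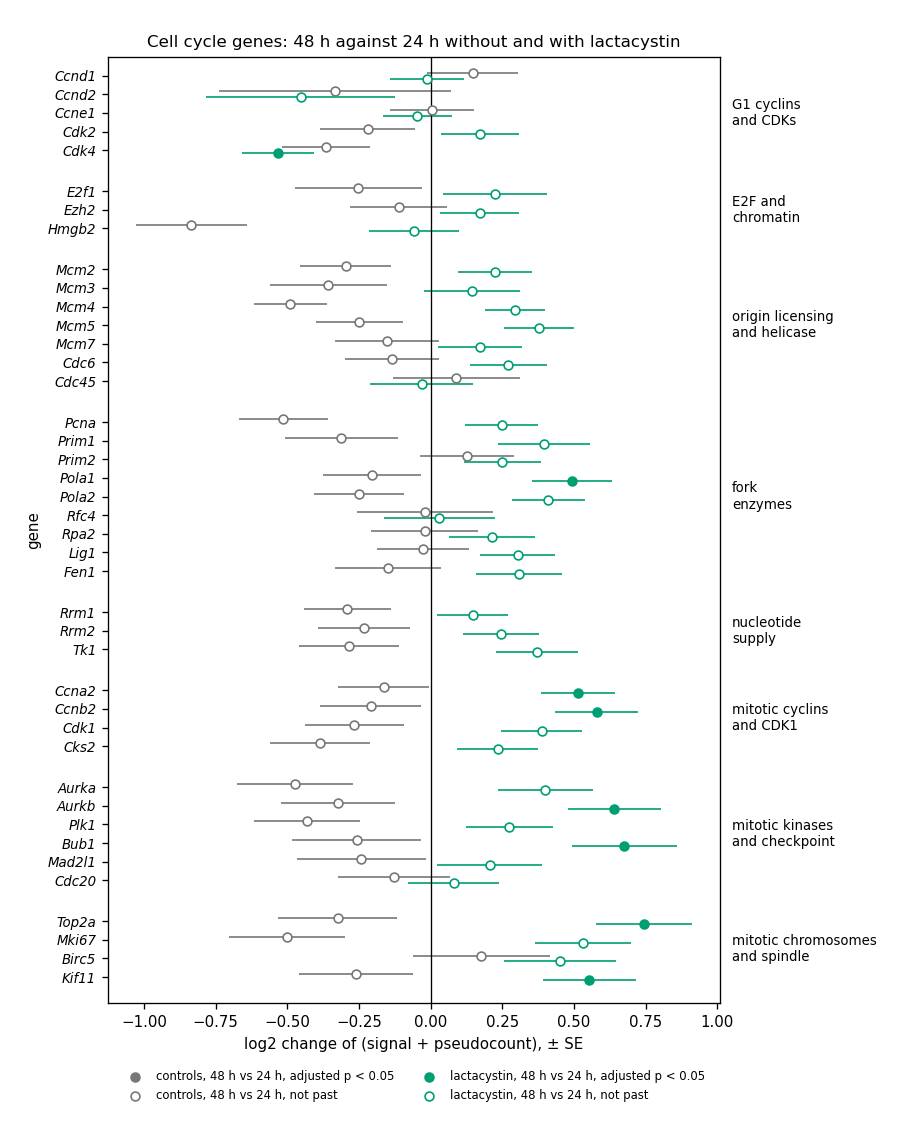
Log2 change from 24 h to 48 h for the 41 genes in controls (grey) and under lactacystin (green), with bars for the SE and filled points for an adjusted p under 0.05. Most grey points lie below 0 with none filled; green points lie above 0 for 35 genes, with 7 filled above 0 and Cdk4 filled below.

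The lactacystin effect at 48 h was also tested against that at 24 h. Mcm4 was the 1 gene of the 41 to pass, with an effect larger by 0.78 ± 0.16 at 48 h (adjusted p = 0.0442), beside 0.415% of all probe sets with a larger and 0.816% with a smaller effect. It lost the call without any 1 array other than replicate 1 of lactacystin at 24 h (0.74 to 0.83, adjusted p = 0.0555 to 0.138). Of the 41 differences 36 were above 0, with a median of 0.50 beside 0.07 over all probe sets. Top2a (1.07 ± 0.27, adjusted p = 0.0801), Mki67 (1.03 ± 0.26, adjusted p = 0.0850) and Pcna (0.76 ± 0.20, adjusted p = 0.100) were larger in size or close to it and did not pass. For the other genes that rose at 48 h, a larger effect at 48 h than at 24 h was therefore not shown by the test. Ccnd1 (-0.16 ± 0.20) and Cdk4 (-0.17 ± 0.20) were below 0.

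Further genes of the same pathway were read from 4 lists of 120 genes, also chosen with earlier results known, of which 78 could be tested. At 24 h 3 of the 78 rose and 1 fell (3.85% and 1.28%, below the 8.20% and 6.66% of all probe sets). Cdkn1a, the CDK inhibitor p21 that arrests the cycle, rose by 1.34 ± 0.15 (adjusted p = 0.000142), Cdc16, a subunit of the anaphase-promoting complex, by 0.68 ± 0.15 (adjusted p = 0.00945), and Mnat1, a subunit of the CDK-activating kinase, by 0.55 ± 0.16 (adjusted p = 0.0372). Ccng2, a cyclin of arrested cells, fell by 0.40 ± 0.10 (adjusted p = 0.0214).

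At 48 h 18 of the 78 rose and 1 fell (23.1% and 1.28%, beside 6.77% and 3.57% of all probe sets), with 63 changes above 0 and a median of 0.30. By list, the rises were 2 of 9 further G1 genes, 2 of 12 pocket proteins, E2F and MYB factors, 5 of 28 replication genes and 9 of 29 genes of G2 and mitosis. The 6 largest were Ect2, a cytokinesis factor (1.25 ± 0.21), the repair gene Brca1 (0.95 ± 0.19), Hells, a chromatin remodeller (0.90 ± 0.23), Uhrf1, which maintains DNA methylation (0.88 ± 0.21), the cytokinesis motor Kif23 (0.84 ± 0.19) and the condensin subunit Smc4 (0.83 ± 0.12). Among the others, Cdkn1a rose by 0.60 ± 0.15 (adjusted p = 0.0239), the retinoblastoma gene Rb1 rose by 0.45 ± 0.13 (adjusted p = 0.0456), and Cdkn2d, the inhibitor p19, fell by 0.50 ± 0.14 (adjusted p = 0.0425). Cdkn1c, the inhibitor p57, was at 0.17 and 0.19 at 24 h and 48 h, and the growth factor response gene Myc at -0.01 and -0.16, none past the threshold. Without replicate 1 of the 48 h controls 3 of the 78 rose (Cdkn1a, Smc4 and Ect2) and none fell, and without replicate 2 of those controls 6 rose. The effect of lactacystin on Cdc16 was smaller at 48 h than at 24 h, by -0.98 ± 0.20 (adjusted p = 0.0442).

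The labelled cell type was checked on markers. All 10 measured neuron markers had signal, summing to 34380 and 38930 in the 48 h controls and 22640 to 33110 under lactacystin, and 3 of the 10 fell at 48 h (Stmn2, Gap43 and Snap25). Tubb3, Rbfox3 and Slc17a7 had no probe set on both designs. Of all probe sets tested 6.77% rose at 48 h and 3.57% fell. Of 8 neural progenitor markers 4 rose (Nes, Notch1, Prom1 and Sox2), with sums of 5844 and 6284 in the controls and 9633 to 10390 under lactacystin. Of 8 tested markers of astrocytes and radial glia 3 rose (Gfap, Gja1 and Ntsr2; sums 19230 and 27230 against 24480 to 30890, overlapping). Of 8 of microglia and macrophages 3 rose (Cd68, Tyrobp and Ctss; sums 696.6 and 1455 against 1207 to 2110, overlapping), and of 9 of fibroblast, mural and meningeal cells 2 rose (Tagln and Acta2; sums 2427 and 2445 against 3421 to 5135). None of the tested markers of these 4 lists fell at 48 h, and no marker of the oligodendrocyte lineage (3 tested), endothelial cells (2) or erythroid cells (2) passed. Of the 7 endothelial markers measured 3 were never above a signal of 32, and no marker was listed at 0. Without replicate 1 of the 48 h controls the counts were 2 falls among neuron markers and rises of 1 progenitor (Nes), 3 astrocyte or radial glial, 1 microglial (Cd68) and 2 fibroblast or mural markers. Without replicate 2 they were 0 falls among neuron markers and rises of 3 progenitor (Nes, Sox2 and Prom1), 1 astrocyte (Gfap), 0 microglial and 2 fibroblast or mural markers. In these bulk samples, fewer cells of a type and less RNA per cell cannot be told apart. The part of cell composition in the result on the cell cycle genes was not tested.

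At 24 h the same lists gave 4 falls among 10 tested neuron markers, and 1 rise and 3 falls among 8 of astrocytes and radial glia. There was 1 rise each among 8 progenitor (Nes), 8 microglial (Cd68) and 9 fibroblast or mural (Tagln) markers. Of all probe sets tested 8.20% rose and 6.66% fell at 24 h, so 1 rise in a list of this size says little about a cell type. Progenitor markers summed to 6168 and 7553 in the 24 h controls and 6929 to 9852 under lactacystin, which overlap, and neuron markers to 28480 and 37650 against 19730 to 25150, which do not. The ratio of 3′ to 5′ probe sets, a measure of RNA quality, was 1.14 for beta-actin in both 48 h controls and 1.18 to 1.46 under lactacystin, so the lactacystin arrays were above both controls. For Gapdh it was 0.790 and 2.48 against 0.776 to 3.48, which overlap. The Gapdh ratio went with array design, at 0.723 to 0.790 on the U74A arrays and 1.55 to 3.48 on the U74Av2 arrays of both times. The part of RNA quality in the result was not tested.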

How the data were processed

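RNA of 10 samples was measured on 4 U74A and 6 U74Av2 arrays. The values the authors deposited are linear intensities, 1 for each of 10043 and 12488 probe sets, computed by MAS5 per the submitters' processing notes; its version is not given in the sources used here. The 66 control probe sets were left out, and arrays were brought to a 2% trimmed mean of 500 over 9977 probe sets common to both designs. After log2(signal + 32), which understates changes of low genes, the 2993 probe sets with the lowest mean (30%; signal under 54.8) were left out. limma 3.58.1 (R 4.3.3; lmFit, eBayes with trend, two-sided) fitted the 4 groups and array design together (5 residual degrees of freedom). Genes on U74Av2 only came from a fit of its 6 arrays (2 residual degrees of freedom, 1 control array per time). Symbols were updated by Entrez identifier through a RefSeq table for 10839 of 10855 probe sets. A gene was represented by whichever common probe set had the highest mean. The fits were tested on simulated data.

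The 49 genes and all lists were chosen with earlier results of these data known. By rule, every one of the 49 genes is named, with full values for those past the threshold, and of the other pathway genes up to 6 of the largest rises and falls past it at each time plus Cdkn1a, Cdkn1c, Rb1 and Myc. Markers were named after their values were seen. The number of arrays limits the precision. Anything that went with array design cannot be told apart from it.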

Additional observations from a re-analysis of the deposited data

Results flagged for a closer look

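Mcm4 was the 1 gene of the 41 whose lactacystin effect differed between times by a test of the difference itself. The effect was larger at 48 h than at 24 h by 0.78 (log2, limma, adjusted p = 0.0442), with 0.79 within U74A and 0.78 within U74Av2. Within U74A each group was 1 array. The call was kept in 9 of 25 other settings, among them 1 of the 10 fits that left out 1 array. No group was large enough to test single arrays for standing apart.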

How the results depend on the processing

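The 24 h count of 2 genes higher was 1 under median scaling, without the filter on low probe sets, on U74Av2 alone, with the replicate block beside array design and in eBayes without trend, 0 without array design, and 4 when only the groups compared were fitted. Leaving out 1 array gave 0 to 3. The 1 gene on U74Av2 alone was Cdc20, and Mcm3 and Cdc20 were the added genes when only the groups compared were fitted. The 48 h count of 18 was 2 without array design, 5 on U74Av2 alone and 11 when only the groups compared were fitted, and leaving out 1 array gave 2 to 19. It was 12 under median scaling and without the filter, 14 after quantile normalization and 22 with the mean of a gene's probe sets. Among all probe sets, 473 rose at 48 h in the main fit and 79 without array design. On U74Av2 alone 242 rose, and 305 when only the groups compared were fitted. Under median scaling 287 rose, without the filter 342 and after quantile normalization 338. These settings therefore lost calls over the whole array and not only among these genes. At 24 h 573 of all probe sets rose in the main fit, 560 under median scaling and 472 without the filter. With the replicate block beside array design 439 rose at 24 h, and 493 in eBayes without trend. Without array design 172 rose at 24 h, and 667 when only the groups compared were fitted. The count of 1 gene with a larger effect at 48 h (Mcm4) was 0 under median scaling, without the filter, without array design, on U74Av2 alone, with the replicate block and in eBayes without trend. It was 0 to 2 without 1 array, with Mcm4 among them in 1 of 10 such fits; the others were Aurkb, Top2a, Mki67 and Pcna. For 48 h against 24 h under lactacystin, the 7 genes higher were 2 under median scaling, 3 after quantile normalization and without the filter, 0 without array design, 1 on U74Av2 alone, 4 when only the groups compared were fitted and 0 to 8 without 1 array. The 1 gene lower was 0 without array design and on U74Av2 alone, and 0 to 1 without 1 array. No call reversed. The cause was not tested, except that U74Av2 alone, the groups compared and leave-one-out use fewer arrays. Median scaling moved the median of all probe sets at 48 h by -0.15, and the genes' median above it stayed at 0.51; the share of rises among all calls went from 65.5% to 31.1% at 48 h, from 53.5% to 29.8% under lactacystin over time and from 33.7% to 12.3% for the effect difference.

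Equal replicate numbers were not taken to pair the arrays. With array design removed, same-numbered arrays correlated at -0.41 to -0.08 within a design and 0.08 to 0.27 across designs. Other arrays correlated at -0.49 to -0.01 and 0.08 to 0.41. Removing group and design forces the 2 controls of a time to deviate by equal and opposite amounts, which shapes these signs. The correlations therefore cannot decide whether equal numbers mark a pair. With the replicate block beside array design, 11 genes were higher at 48 h and 1 at 24 h. Of all probe sets 358 rose at 48 h and 439 at 24 h in that fit, against 473 and 573 in the main fit. With the block in place of array design the counts of genes were 0 and 0, beside 61 and 131 of all probe sets. They were also 0 for 48 h against 24 h under lactacystin in both directions. There 26 of all probe sets rose and 41 fell, against 432 and 376 in the main fit. Mcm4 at 48 h passed in 25 of 26 settings. Signal over background limits Mcm6 and Cdkn1b.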
